A study of Mus musculus with 5 samples.

Results

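Head-to-head coding gene pairs are neighbouring protein-coding genes that lie on opposite strands and start back to back, so that the minus-strand gene runs away to the left and the plus-strand gene to the right of a short shared stretch. They were taken from the GENCODE annotation of the mouse mm9 assembly, with the longest transcript of each gene, transcription start sites (TSSs) at most 1000 bp apart and gene spans that do not overlap. The rule used positions and no read. It found 753 pairs holding 1492 of the 22367 coding genes on chromosomes 1 to 19, X and Y (6.67%). The TSS distance had a median of 162 bp and ran between 3 and 994 bp, with 353 pairs up to 150 bp apart, 207 above 150 and up to 300 bp, and 193 above 300 bp. Of the genes, 14 belonged to more than 1 pair, and 8 pairs repeated the symbols of another pair because the annotation holds a gene under more than 1 identifier. In 24 pairs the TSS of a further gene lay between the members, and 1 mitochondrial pair was left out.

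The reads came from global run-on sequencing (GRO-seq), in which nuclei are isolated and engaged RNA polymerases extend their transcripts with a brominated nucleotide, so that a read marks the position and strand of a transcribing polymerase. The first group, MESC, is 3 samples of V6.5 mouse embryonic stem cells of the C57Bl/6(f) x 129/Sv(m) strain at passages 12 to 14, kept on irradiated feeder cells with LIF. The second, MEF, is 2 samples of fibroblasts of the same strain taken from a male E13.5 embryo, at passage 2 and without LIF. The labels name no treatment or mutation for either group, and V6.5 is 1 line. The samples of a cell type stand pooled in 1 file, so each cell type is 1 library of 8616592 reads (MESC) or 6583644 reads (MEF), with no replicate value and no test between them. The 95% intervals given below are exact. Those of read ratios describe the error of counting alone. Those of shares are binomial and treat the pairs or windows as independent of each other.

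Promoters of this kind are often called bidirectional promoters. They are usually rich in CpG and poor in TATA boxes, and many serve housekeeping genes of DNA repair, RNA processing and mitochondria, while histone genes are a classic clustered case. A mammalian promoter also commonly fires on both strands when it has 1 gene, giving short upstream antisense RNA, and polymerase often halts shortly after starting, which is called promoter-proximal pausing.

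The stretches between the TSSs of 9 pairs are printed here because the results below turn on them: 3 pairs in which nearly all promoter reads lay on 1 side, 2 with many reads on both sides, 3 whose members differed between the cell types, and a histone pair. They are plus-strand sequence of the mm9 build (NCBIM37), written 5′ to 3′ and running between the bases beside both TSSs. Capitals mark a match to 1 of the motifs named in the next paragraph, on either strand, and a stretch with no capitals has none of them.
Rnf25/Stk36, chr1:74647972-74648018: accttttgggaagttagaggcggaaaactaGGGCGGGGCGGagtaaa
Ttc9c/Hnrnpul2, chr19:8893824-8893890: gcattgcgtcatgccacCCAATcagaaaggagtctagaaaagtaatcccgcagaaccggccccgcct
Srsf7/Ttc39d, chr17:80606630-80606799: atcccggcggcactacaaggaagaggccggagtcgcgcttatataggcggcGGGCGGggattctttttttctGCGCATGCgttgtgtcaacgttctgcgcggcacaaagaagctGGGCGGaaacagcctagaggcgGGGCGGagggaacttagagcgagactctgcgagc
Rps28/Ndufa7, chr17:33961438-33961535: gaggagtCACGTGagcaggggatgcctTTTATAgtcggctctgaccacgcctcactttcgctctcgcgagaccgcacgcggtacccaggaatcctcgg
Pdhx/Apip, chr2:102913671-102913831: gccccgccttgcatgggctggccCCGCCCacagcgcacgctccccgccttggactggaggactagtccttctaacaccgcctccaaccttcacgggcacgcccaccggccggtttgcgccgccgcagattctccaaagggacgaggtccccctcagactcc
Sgce/Peg10, chr6:4697205-4697305: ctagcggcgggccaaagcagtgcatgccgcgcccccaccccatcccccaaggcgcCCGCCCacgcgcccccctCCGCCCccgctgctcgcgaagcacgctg
Dram1/Gnptab, chr10:87841826-87841876: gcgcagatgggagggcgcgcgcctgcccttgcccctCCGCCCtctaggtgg
Tfb2m/Cnst, chr1:181476399-181476500: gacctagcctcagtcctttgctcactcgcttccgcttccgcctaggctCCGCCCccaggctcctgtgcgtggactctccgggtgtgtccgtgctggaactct
Hist1h2ah/Hist1h2bk, chr13:22127513-22127689: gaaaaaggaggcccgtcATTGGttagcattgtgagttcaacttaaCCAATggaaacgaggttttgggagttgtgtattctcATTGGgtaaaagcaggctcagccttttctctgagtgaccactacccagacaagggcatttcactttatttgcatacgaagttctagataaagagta

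Windows of 300 bases centred between the TSSs were GC- and CpG-rich. They had a median GC content of 62.3% and a median of 24 CpGs, against 55% and 11 CpGs in windows reaching 250 bases before to 50 bases after the TSS of the 20875 other coding genes, and 59.7% and 18 CpGs in the 11903 of those that were active in a library. Motifs were sought on both strands as exact letters. The TATA letters TATAAA were held by 4.78% of pair windows, 13.9% of other windows and 8.21% of active other windows. CCGGAAG, the core bound by ETS factors, stood in 28.3%, 9.82% and 14.4% of them. The GC box GGGCGG was present in 67.1% of pair windows, 42.8% of other and 59.9% of active other windows. CCAAT was found in 42.9% of pair windows, 37.2% of other windows and 37.3% of active other windows. The NRF1 letters GCATGCGC had 6.64% against 3.08% and 4.34%, the YY1 letters AAGATGGCG 5.18% against 1.68% and 2.55%, and the E box CACGTG 10.6% against 7.67% and 9.64%, in the same order. The longer motif known as M4 was held by 6.37%, 2.17% and 3.53%. The E2F letters TTTCGCGC and TTTGGCGC stood in 1.33% of pair windows each, against 0.283% and 0.618% of other windows and 0.462% and 0.882% of active other windows. For TTTGGCGC the interval of the pair share, 0.639 to 2.43%, held the share of the active other windows. So did that of the E box, 8.51 to 13.05%. In the 574 pairs with both members active in a library, the NRF1 letters stood in 5.75%. The interval of that share, 3.99 to 7.98%, held the 4.34% of active other windows. Among these active pairs the intervals of TTTGGCGC and the E box also held the shares of active other windows. Letters overlap among motifs where their sequences do, and a match describes the sequence only. Among the printed stretches, that of Hist1h2ah/Hist1h2bk held CCAAT letters 3 times with 3 CpGs in 177 bases, and that of Rps28/Ndufa7 held both TATA and E box letters.

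Marker genes fitted the labels. The ES cell markers (8 genes measured) summed to 3490 body reads in MESC and 15 in MEF, with 3 of 8 at 0 in MEF. The fibroblast markers (8 genes), which the feeder cells of the MESC culture would also carry, summed to 696 reads in MESC and 17008 in MEF. Blood markers (4 genes) summed to 16 and 222 reads and endothelial markers (4 genes) to 334 and 140, in MESC and MEF, and the part of these cells in any result was not tested. Fewer cells of a type and less RNA per cell cannot be told apart in such pooled libraries.

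Most pairs were transcribed from both sides. A gene was taken as active with at least 20 promoter reads (sense 5′ ends within a window that opens 50 bp ahead of the TSS and closes 300 bp past it) or with a gene body (1000 bp after the TSS to the end) denser than the intergenic background of 0.183 reads per kb in MESC and 0.108 in MEF. By this measure 88.0% of 1437 members were active in MESC, where the other coding genes stood at 55.8% of 20007 and all coding genes at 57.9%. In MEF the shares were 83.6% of members, 52.3% of other genes and 54.4% of all coding genes. Both members were active in 80.1% of 699 pairs in MESC (interval 77.0 to 83.0) and in 72.7% in MEF (69.2 to 75.9). Opposite-strand neighbours whose TSSs lay over 1000 and up to 10000 bp apart had both genes active in 50.2% of 773 cases in MESC and 40.4% in MEF, and same-strand neighbours in 38.6% of 10466 cases in MESC and 34.1% in MEF. The intervals of the pairs overlapped neither of these. No test across samples stands behind this difference, since each cell type is 1 library.

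**Figure D1:**
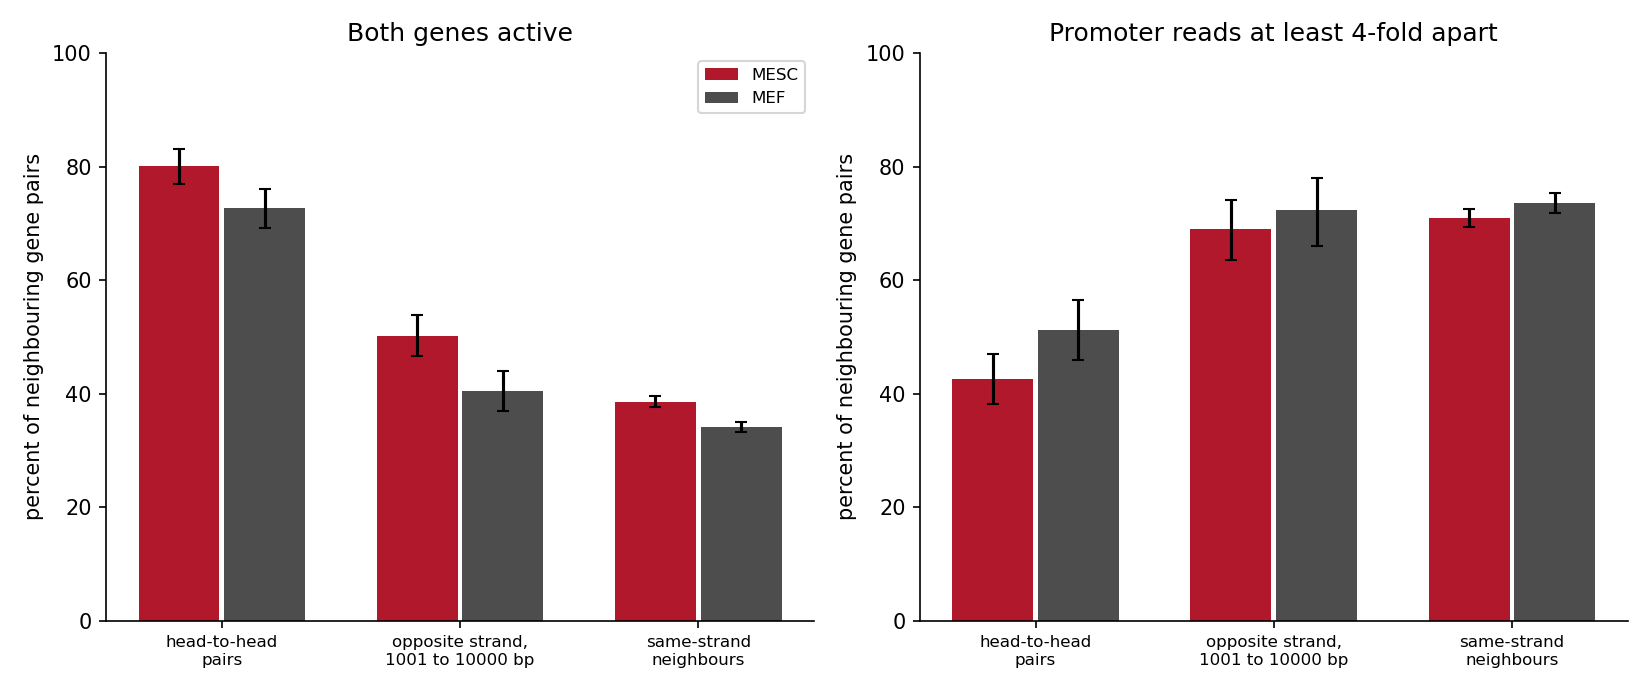
Percent of head-to-head pairs, of opposite-strand neighbours over 1000 and up to 10000 bp apart and of same-strand neighbours with both genes active (left) and with promoter reads at least 4-fold apart (right), in MESC and MEF; bars are shares and error lines exact 95% binomial intervals. Head-to-head pairs stand highest on the left, at 80.1% in MESC and 72.7% in MEF, and lowest on the right, at 42.5% and 51.2%.

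In 494 of 699 pairs both members were active in both cell types, and in 28 no member was active in either. Pairs with exactly 1 active member numbered 109 in MESC and 150 in MEF. Their inactive members were not empty: 90 of the 109 in MESC and 118 of the 150 in MEF held at least 1 promoter read, with medians of 6 and 4 reads. The active partners had medians of 13 promoter reads in MESC and 10 in MEF. By distance, both members were active in MESC in 83.7% of pairs at up to 150 bp, 76.2% at 150 to 300 bp and 77.7% at over 300 bp. In MEF the shares over the same classes were 76.7%, 74.1% and 63.7%.

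The type IV collagen pair Col4a4/Col4a3, which encodes chains of the kidney and eye basement membrane, was among the silent pairs. Col4a4 had 0 promoter reads in both libraries, with 6 body reads in MESC and 7 in MEF. Col4a3 likewise had 0 promoter reads in both. At 0 reads the promoter counts allow up to 3 reads per library, so transcription there was not detectable at this depth.

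Read density around the TSSs showed the shape of the shared promoter. Averaged over the members of pairs with both active (1112 genes in MESC, 1008 in MEF), a choice that itself requires reads from the partner, and with at most 50 reads counted per gene and bin, sense reads peaked 37 bp after the TSS in both libraries, at 24.9 RPKM (reads per kb, scaled to library size) in MESC and 21.3 RPKM in MEF. At active coding genes with no other TSS within 2000 bp the same peak reached 14.4 RPKM in MESC and 13.8 RPKM in MEF. Reads on the opposite strand peaked 138 bp upstream for pairs at up to 150 bp, 263 bp upstream at 150 to 300 bp and 388 bp upstream at over 300 bp in MESC (363 bp in MEF), so the opposite peak moved away with the distance between the TSSs. The opposite peak of single genes stood 138 bp upstream in MESC and 163 bp upstream in MEF.

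**Figure D2:**
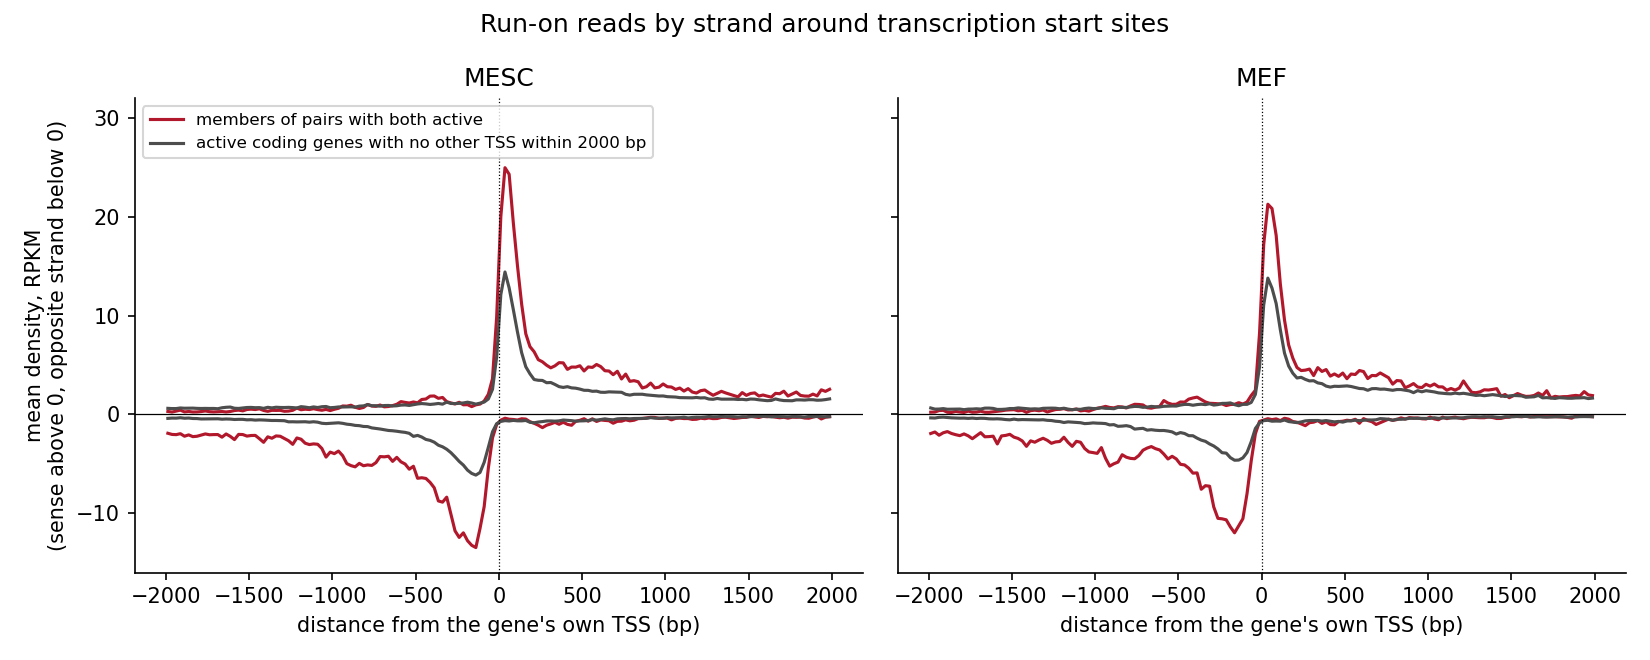
Mean read density in bins (capped at 50 reads per gene) around the TSS of members of pairs with both active and of active coding genes with no other TSS within 2000 bp, sense strand above 0 and opposite strand below 0, in MESC and MEF. Pair members reach 24.9 RPKM on the sense strand in MESC against 14.4 RPKM in single genes, and their opposite strand stays raised past 1000 bp upstream.

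Farther upstream the opposite strand of pairs stayed well covered. Between 1000 and 5000 bp upstream, active pair members, whatever their partner, had a median of 41 opposite-strand reads in MESC and 27 in MEF, and single genes 4 in MESC and 2 in MEF. Within the first 1000 bp the medians were 39 and 24 reads for members, and 8 and 5 for single genes. The body of the partner gene lies on that strand, so upstream antisense RNA of 1 member and sense RNA of the other cannot be told apart.

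Members of a pair were unevenly loaded with polymerase, but less so than other neighbours. Promoter windows have 1 width, so their reads compare directly. Members had a median of 20 promoter reads in MESC and 12 in MEF, and other coding genes 2 in MESC and 1 in MEF. Among 494 pairs with at least 20 reads in 1 member, 42.5% were at least 4-fold apart in MESC (interval 38.1 to 47.0), and among 369 pairs 51.2% in MEF (46.0 to 56.4). The background over same-strand neighbours was 71% in MESC and 73.6% in MEF, and opposite-strand neighbours farther apart stood at 69.0% and 72.3%. Neither strand was favoured: the minus-strand member was the higher in 111 pairs and the plus-strand member in 99 in MESC, with 93 and 96 in MEF. Over all 695 pairs with both windows free of other genes, the members' log2(reads + 1) correlated with r = 0.36 (Spearman's coefficient 0.27) in MESC and r = 0.29 (Spearman's coefficient 0.22) in MEF, close to the 0.32 and 0.29 of 10400 same-strand neighbours. By Spearman's coefficient the same-strand neighbours were at 0.36 and 0.33. The sign rested on the pairs admitted: among pairs with at least 20 reads in 1 member, r was -0.24 in MESC and -0.41 in MEF. These points share a library and are a description.

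**Figure D3:**
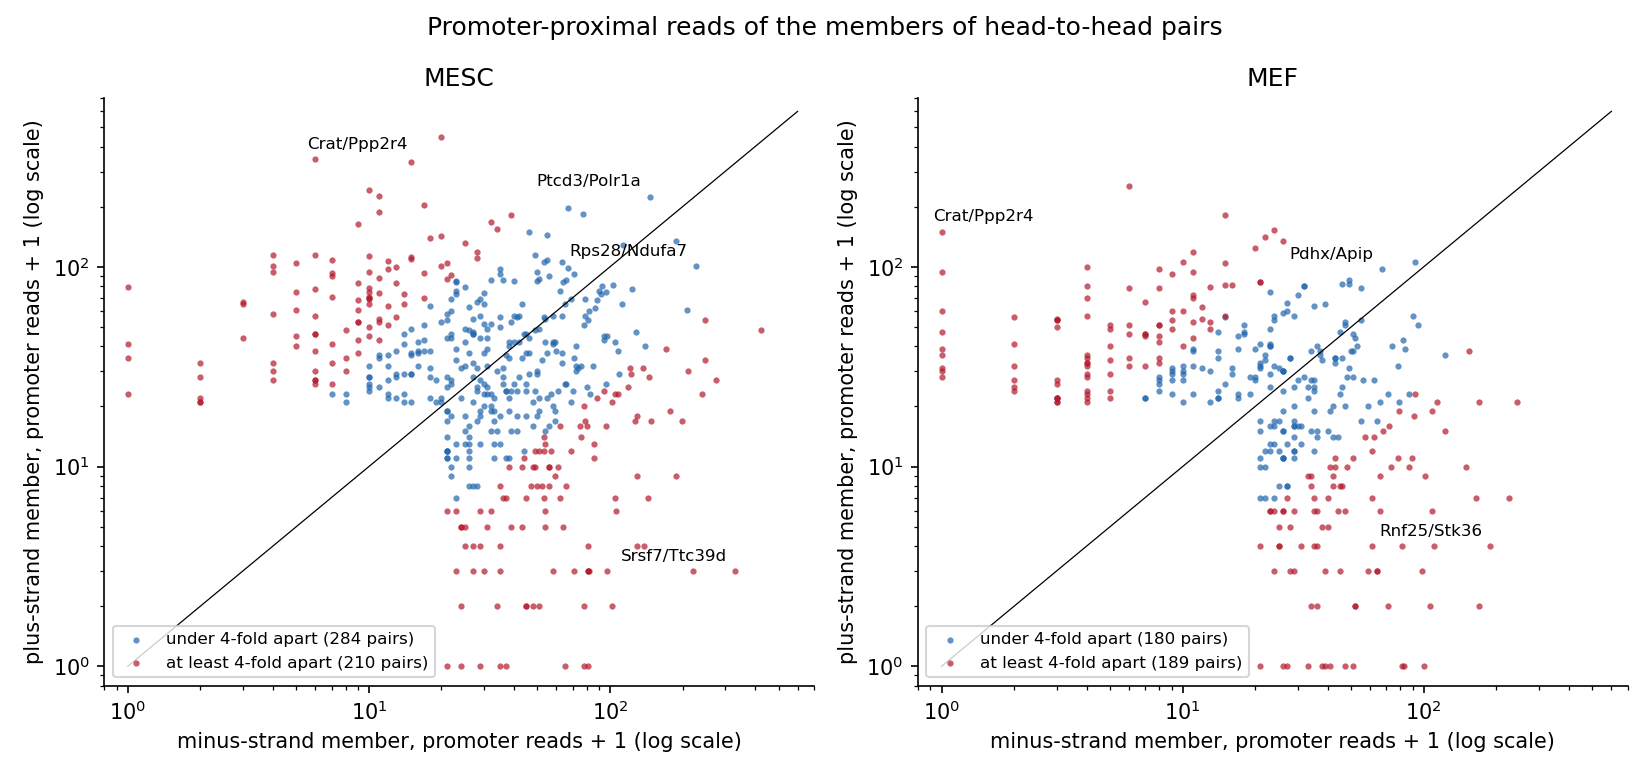
Promoter reads plus 1 of the minus-strand member (x, log scale) and the plus-strand member (y, log scale) of each pair with at least 20 reads in 1 member, 494 pairs in MESC and 369 in MEF; red points are at least 4-fold apart. Crat/Ppp2r4 lies far to the plus side in both panels, Srsf7/Ttc39d (named in the MESC panel) and Rnf25/Stk36 (named in the MEF panel) far to the minus side, and Ptcd3/Polr1a near the line.

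Pairs with the largest ratios had many promoter reads on 1 side and a few on the other. Srsf7, a splicing factor of the SR family, had 329 promoter reads in MESC and 164 in MEF, and its partner Ttc39d, 171 bp away, had 2 in MESC and 6 in MEF. The ratio of minus-strand to plus-strand reads was 164 (45.2 to 1364) in MESC and 27.3 (12.3 to 75.6) in MEF. Rnf25, a ubiquitin ligase, had 221 and 188 promoter reads in MESC and MEF, against 2 and 3 for the kinase gene Stk36, whose TSS lies 48 bp away. Ppp2r4, an activator of protein phosphatase 2A, had 345 and 149, while Crat, carnitine acetyltransferase, had 5 in MESC and 0 in MEF, a ratio of plus to minus of 69.0 (29.3 to 214) in MESC and at least 49.7-fold in MEF. In each of these pairs the same member was the higher in both cell types.

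Few promoter reads did not mean an untranscribed gene. Hnrnpul2 had 3 promoter reads in MESC and 2 in MEF beside the 138 and 63 of Ttc9c, but 345 and 326 body reads. Son, a nuclear speckle protein gene, had 3 and 5 promoter reads, against 129 and 46 for the purine synthesis gene Gart, and its body held 1216 reads in MESC and 878 in MEF. Fubp1, encoding a DNA-binding regulator, had 26 and 6 promoter reads and 1141 and 742 body reads, beside 275 and 224 promoter reads of the chaperone gene Dnajb4. Over all pairs at least 4-fold apart, the lower member was still active in 86.2% of 210 in MESC and 78.3% of 189 in MEF. The member with more promoter reads also had the denser body in 106 of 159 such pairs in MESC and in 85 of 144 in MEF. With the annotated TSS that held the most reads in place of the longest transcript's, the share at least 4-fold apart was 37.0% in MESC and 42.8% in MEF.

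Imbalance within a pair was much alike in both cell types. Over the 355 pairs compared in both, the log2 ratio of minus-strand to plus-strand promoter reads correlated between MESC and MEF with r = 0.90 (Spearman's coefficient 0.91), beside 0.95 in opposite-strand neighbours farther apart and 0.94 in same-strand neighbours. The points share windows and mappability. At least 4-fold imbalance held in 163 of these pairs in MESC and 179 in MEF. It held in both for 133, and in all 133 the same member was the higher.

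**Figure D4:**
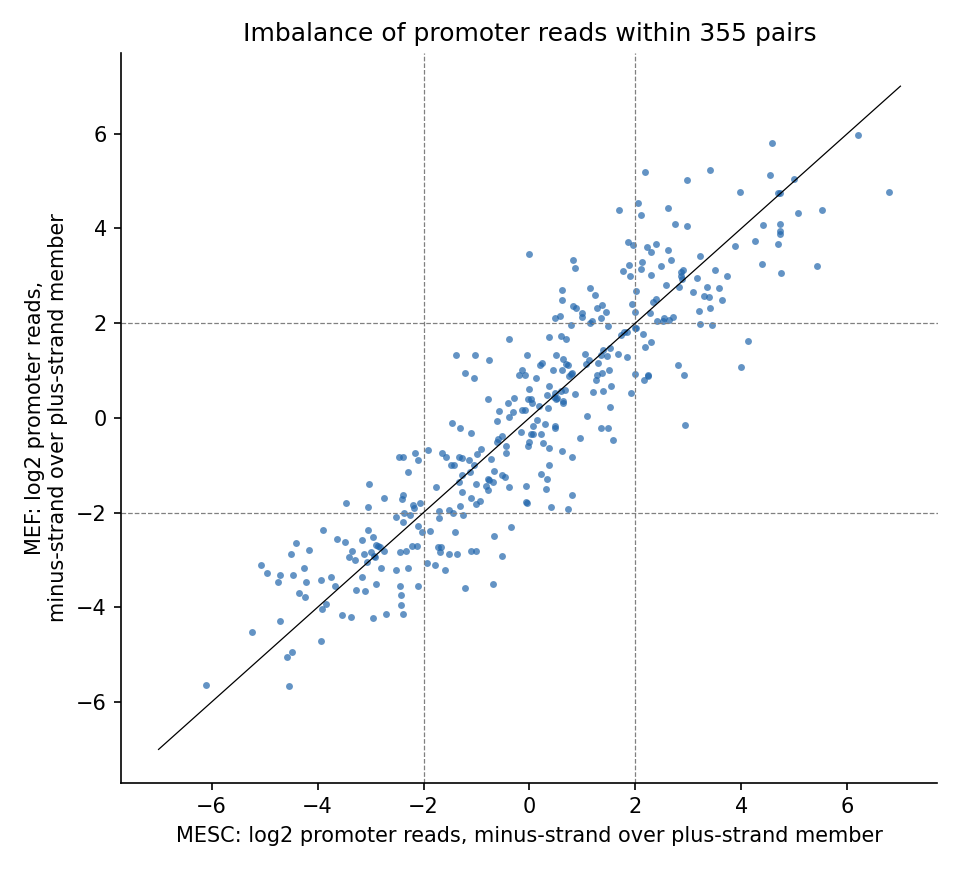
Log2 ratio of promoter reads, minus-strand over plus-strand member, in MESC (x) and MEF (y) for the 355 pairs with at least 20 reads in 1 member in both libraries; counts under 3 are set to 3, dashed lines mark 4-fold and the solid line equality. The points follow the line (r = 0.90), and no pair is past 4-fold in opposite directions.

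Other pairs had many polymerases on both sides. Ptcd3, a mitochondrial translation factor, had 145 promoter reads in MESC and 54 in MEF, and Polr1a, the large subunit of RNA polymerase I, had 223 and 77. Rps28, a ribosomal protein gene, had 227 and 153, and Ndufa7, a complex I subunit, 100 and 37. Pdhx, a pyruvate dehydrogenase component, had 89 and 66, and Apip, of the methionine salvage pathway, had 75 and 96, so the ratio of minus to plus was 1.19 (0.863 to 1.64) in MESC and 0.688 (0.495 to 0.950) in MEF. Of these pairs, Rps28/Ndufa7 reached 4-fold, in MEF only, at a ratio of 4.14 (2.87 to 6.09), beside 2.27 (1.79 to 2.90) in MESC.

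Pair members seldom differed 4-fold between the cell types. Body density in RPKM was compared, MESC over MEF, for the 949 of 1492 members that held 50 reads or more in a library, of which 773 did so in both. A 4-fold difference with MESC on top was found for 21 members (2.21%), and one with MEF on top for 11 (1.16%). Over all 9135 coding genes compared, the shares were 7.49% and 5.5%. Most of the MESC calls met the minimum of 50 reads through MESC alone. Among the 773 members that met it in both libraries, a choice made after seeing the data, 3 stood 4-fold higher in MESC, Slc25a40, Chek2 and Spry4, and 6 in MEF, where all coding genes under the same rule had 1.32% and 3.21%. Promoter windows gave 24 members (3.21%) higher in MESC and 5 (0.668%) higher in MEF of 748, against 6.05% and 2.82% of 4747 promoters. The median log2 ratio was 0.44 for member bodies and 0.29 for all bodies. Scaling by the median ratio takes 0.29 off every log2 ratio. Then 13 members stood higher in MESC and 16 higher in MEF in the body, with 17 and 8 in the promoter. All coding genes under that scaling had 6.14% and 6.98% in the body, and 4.74% and 3.96% in the promoter. Read length was mixed in MESC (35 and 36 bases) and uniform in MEF (35 bases). With the 35-base MESC reads alone, 10 of 827 member bodies stood higher in MESC and 13 in MEF, against 5.24% and 7.005% of all bodies compared. Of 529 member promoters, 14 stood higher in MESC and 8 in MEF, against 3.598% and 4.84% of all promoters compared. With 1 read kept per position, 10 of 610 member promoters stood higher in MESC, against 3.46% of all promoters compared.

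No pair had both bodies past 4-fold. Of the 318 pairs with both bodies compared, 14 had 1 member past 4-fold and 304 had none. Among 2191 same-strand neighbours 39 were past 4-fold the same way, 10 in opposite ways and 464 in 1 gene, and among 190 opposite-strand neighbours farther apart the numbers were 3, 1 and 30. By distance, 1 member was past 4-fold in 3 of 156 pairs at up to 150 bp, 3 of 82 at 150 to 300 bp and 8 of 80 at over 300 bp. The members' ratios had intervals that did not overlap in 35.5% of the 318 pairs (30.3 to 41.1), against 60.1% of same-strand neighbours and 51.1% of the opposite-strand neighbours. The members' log2 ratios correlated weakly, with r = 0.19 (Spearman's coefficient 0.22), beside 0.19 in same-strand and 0.24 in farther opposite-strand neighbours. For promoter ratios r was 0.04 over 218 pairs.

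**Figure D5:**
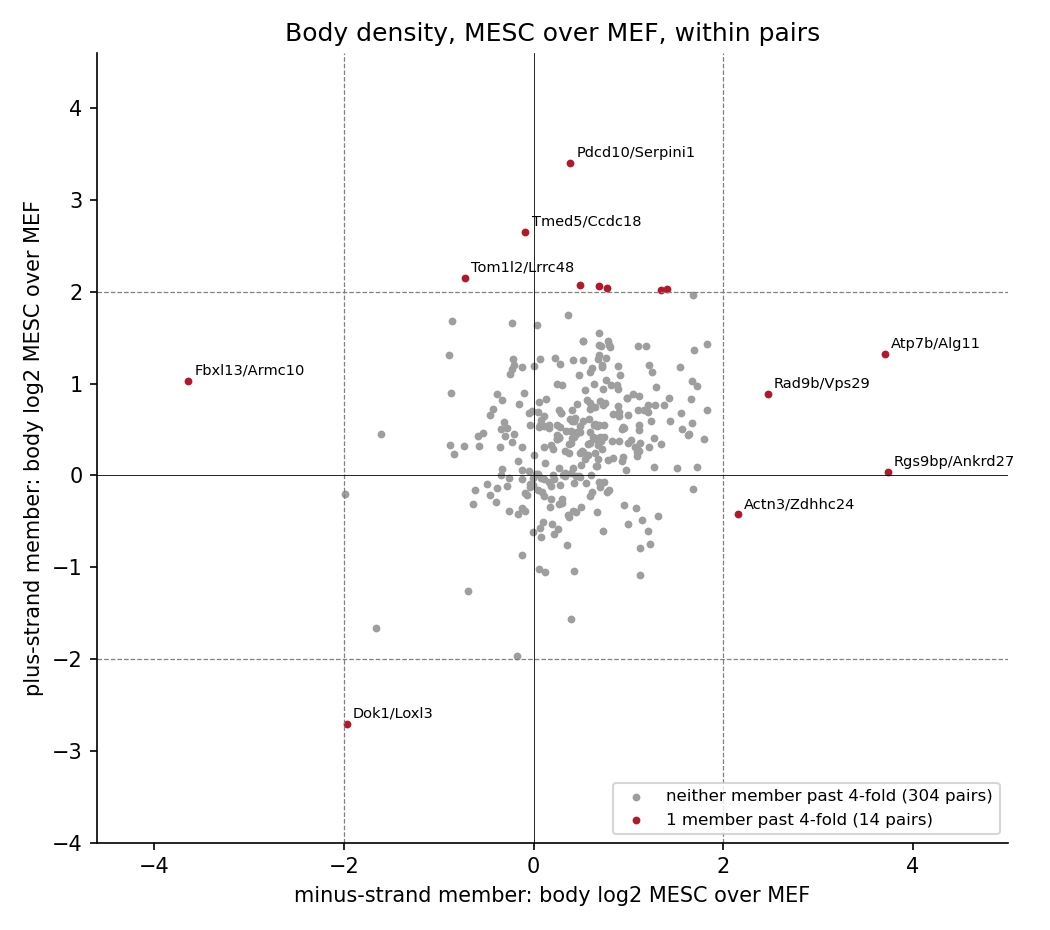
Log2 ratio of body density, MESC over MEF, of the minus-strand member (x) and the plus-strand member (y) in the 318 pairs with both bodies compared; dashed lines mark 4-fold, and names stand at the red points farthest out. Red points, the 14 pairs with 1 member past 4-fold, lie beyond 1 pair of lines each, and Dok1/Loxl3 lies closest to the corner where both are higher in MEF.

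Of the 8 pairs with the largest differences between members, among those with at least 100 body reads in the higher library for each member, 4 had 1 member past 4-fold and a partner under it. Fbxl13, an F-box protein gene, had 23 body reads in MESC and 220 in MEF, a ratio of MESC over MEF of 0.0801 (0.0498 to 0.123). Its partner Armc10, 274 bp away, had 210 and 79, a ratio of 2.04 (1.57 to 2.67) the other way. Serpini1, the neuronal protease inhibitor neuroserpin, had 207 body reads in MESC and 15 in MEF (ratio 10.6, 6.27 to 19.2), and Pdcd10, a vascular integrity gene, 385 and 226 (1.31, 1.11 to 1.55). Ccdc18 had 394 and 48 (6.29, 4.66 to 8.68), while Tmed5, a cargo receptor of the early secretory pathway, had 177 and 144 (0.942, 0.752 to 1.18). Atp7b, a copper-transporting ATPase, had 102 and 6 (13, 5.79 to 36.3) beside 316 and 97 for Alg11, a mannosyltransferase of N-glycosylation (2.50, 1.98 to 3.17).

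Smaller differences ran in opposite directions inside 4 further pairs. Peg10, an imprinted gene derived from a retrotransposon, had 214 body reads in MESC and 51 in MEF (ratio 3.22, 2.36 to 4.46), and Sgce, an imprinted sarcoglycan gene that starts 102 bp away, had 90 and 125 (0.552, 0.416 to 0.730). Dram1, a lysosomal regulator of autophagy, had 44 and 103 (0.327, 0.225 to 0.470), and Gnptab, which marks lysosomal enzymes with mannose 6-phosphate, had 357 and 200 (1.37, 1.15 to 1.64), with TSSs 52 bp apart. Tfb2m, a mitochondrial transcription factor, had 153 and 54 (2.17, 1.58 to 3.02) beside 159 and 258 for Cnst (0.472, 0.385 to 0.578). Zfp408 had 177 and 58 (2.34, 1.73 to 3.20) and Arhgap1 had 156 and 201 (0.595, 0.480 to 0.737). Scaling by the median ratio lowers every ratio alike, and none of these 8 ratios crosses 1 under it. The lower end of the Gnptab interval, 1.15, does fall below 1 there. The opposite directions of Dram1 and Gnptab are therefore not clear of counting error under that scaling.

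A few pairs differed together once thinner bodies were admitted. With at least 20 body reads in 1 library, a minimum chosen after the data were seen, 4 of 425 pairs had both members at least 4-fold higher in MESC and none in MEF. Nphs1, which encodes the kidney slit-diaphragm protein nephrin, had 323 body reads in MESC. It had 0 in MEF, which places MESC at least 82.5-fold higher with 3 reads per library as the floor. Its neighbour Kirrel2, of the same immunoglobulin superfamily, had 46 in MESC and 0 in MEF. Their promoter windows were almost empty, with 0 reads for Nphs1 in both libraries and 2 in MESC for Kirrel2. Nrg4, a neuregulin, had 138 body reads in MESC and 9 in MEF, and AI118078 had 32 and 2. N4bp3 had 68 and 6, and D930048N14Rik had 49 and 1. Kctd19 and Lrrc36 had 28 and 38 reads in MESC and 1 and 3 in MEF, and their promoters held 25 and 11 reads in MESC and 0 in MEF. Every member of these 4 pairs met the minimum through MESC alone, the library in which it was the higher. At this minimum at least 1 gene was past 4-fold in 32 pairs and both were in 4 (12.5%), beside 8.83% of 861 same-strand neighbours. The share rests on 4 pairs, so no difference from the neighbours is drawn from it.

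On the MEF side, Dok1/Loxl3 came closest to a shared difference. Loxl3, a lysyl oxidase that cross-links matrix proteins, had 85 body reads in MESC and 425 in MEF (ratio of MESC over MEF 0.153, 0.120 to 0.194). Dok1, a docking protein of tyrosine kinases, had 24 and 72 (0.256, 0.154 to 0.411), just inside 4-fold. Under scaling by the median ratio, by TMM or without rDNA-like loci both members passed 4-fold. At Loxl3 the promoter had 1 read in MESC and 39 in MEF, and at Dok1 23 and 35. Anxa5, annexin A5, had 110 and 586 body reads (0.144, 0.116 to 0.177), but 7 and 9 promoter reads. The promoter of its partner 1810062G17Rik held 7 reads in MESC and 39 in MEF (0.138, 0.0519 to 0.311). The body of 1810062G17Rik held 18 and 33 reads, too few for the comparison, so neither window showed a 4-fold difference in both members. Tmem176b had 1 and 68 body reads and Tmem176a 0 and 10, too few in Tmem176a for the comparison.

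Of the 21 bodies past 4-fold in MESC, 12 had a partner that was also compared. The partners' log2 ratios ran between -0.73 and 1.41 with a median of 0.59, and 9 of 12 were above 0, where 711 of all 949 members compared (74.9%) were. Of the 11 in MEF, 2 had such a partner, at -1.97 and 1.03. The promoters followed in part: of 10 promoters compared among the MESC genes 3 were past 4-fold the same way, and of 3 among the MEF genes 2. Chek2, a checkpoint kinase, had 368 body reads in MESC and 54 in MEF (ratio 5.22, 3.92 to 7.09), and Rad9b, of the checkpoint clamp family, had 245 and 34 (5.52, 3.85 to 8.16). Vps29, the retromer subunit beside Rad9b, had 161 and 67 (1.84, 1.38 to 2.49).

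Nearly all pair members with enough reads were paused, as were other genes. The pausing index is promoter density divided by body density, and it was taken where both windows had at least 20 reads. Its median was 11 over 595 members in MESC and 15.6 over 386 in MEF, and 10.3 and 13.3 over other coding genes. Indices of 2 or more were found in 97.1% of members in MESC and 99.0% in MEF, against a background of 96.4% and 96.9% of all coding genes measured. The 20-read minimum selects strong promoters. Without it, 82.7% of 1167 active members in MESC and 82.5% of 1129 in MEF had an index of at least 2, and 64.8% and 62.7% of other active genes.

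The members of a pair were paused to different degrees. Over 148 pairs in MESC with both indices, the log2 indices correlated with r = 0.13 (Spearman's coefficient 0.12), and over 56 in MEF with r = 0.20 (Spearman's coefficient 0.18), beside 0.05 in both libraries in same-strand neighbours. The indices were at least 4-fold apart in 41 of 148 pairs in MESC (27.7%) and in 13 of 56 in MEF (23.2%), close to the 29.0% and 27.3% of same-strand neighbours. Both members reached an index of 2 in 139 and 55 of these pairs.

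Some pairs joined members with widely different indices. Among those named here, only Fubp1 and Wbp11 had an index below 2, both in MESC. Dnajb4 had an index of 56.5 in MESC and Fubp1 of 1.65, so the densely transcribed Fubp1 body carried 5.25 RPKM beside 8.67 RPKM in its promoter. Wbp11, a splicing gene, had 1.72 in MESC and BC049715 had 98.7, and Cdc27, a subunit of the anaphase-promoting complex, had 5.04 beside 168 for the myosin light chain gene Myl4. In MEF, Hnrnph3, an RNA-binding protein gene, had an index of 5.03 and Pbld2 of 184, where MESC gave 3.22 and 69.3. Dbi, the acyl-CoA-binding protein gene, had 23.3 in MESC and 9.39 in MEF, and 3110009E18Rik had 80.8 and 152. Uqcrh, a complex III subunit, had 18.5 and 25.3, while Lrrc41 had 4.50 and 3.14. Pairs with alike indices also occurred: Mrpl37, a mitochondrial ribosomal protein gene, had 38.9 in MESC and 55.3 in MEF, and Cyb5rl 40.8 and 59.6.

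Gene groups entered the pairs unevenly. The replication-dependent histones had the highest share, 27 of 67 genes (40.3%), and 13 pairs joined histone genes to each other. DNA replication and repair had 37 of 144 genes in pairs (25.7%), splicing and RNA processing 41 of 168 (24.4%), respiratory chain subunits 21 of 94 (22.3%), RNA polymerases and general transcription factors 26 of 117 (22.2%) and mitochondrial ribosomal proteins 16 of 76 (21.1%). For comparison, 6.67% of all coding genes were members. Zinc-finger proteins had 18 of 392 genes in pairs (4.59%), and fibroblast, matrix and contractile genes 4 of 108 (3.70%). None of 35 pluripotency and ES cell genes was in a pair. These counts are small and carry no interval, so whether such shares lie below 6.67% was not tested.

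Few bodies of these groups were past 4-fold between the cell types, while the medians of the next 6 lists stood above that of all bodies. Of the 29 DNA replication and repair members compared, 2 were past 4-fold in MESC, Chek2 and Rad9b, beside 7.49% of all bodies, and none in MEF, with a median log2 ratio of 0.90. The 34 splicing members, 16 respiratory chain members, 20 polymerase and transcription factor members, 20 cell cycle members and 11 mitochondrial ribosomal members had none past 4-fold, with medians of 0.62, 0.50, 0.59, 0.74 and 0.89. Over all bodies the median was 0.29. These lists hold pair members, whose own median, given above, also stood above that of all bodies. Whether a list differs from the other pair members was not tested. Of 2 fibroblast and matrix members compared, Loxl3 was higher in MEF. Both Rars2, a mitochondrial arginine tRNA synthetase gene, and Orc3, of the origin recognition complex, were active: Orc3 had 44 promoter reads in MESC and 22 in MEF, and Rars2, 13 bp away, had 36 and 24.

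Of 13 histone pairs, 11 had the promoter reads to be compared in each library, and 6 of them were at least 4-fold apart in MESC and 7 in MEF, beside 42.5% and 51.2% of all pairs. Hist1h2ad had 444 promoter reads in MESC and 253 in MEF, beside 19 and 5 for Hist1h2bf. Hist1h2ag had 420 and 77 and Hist1h2bj 47 and 10. Hist1h2ah and Hist1h2bk, whose shared stretch is printed above, had 112 and 128 reads in MESC and 45 and 24 in MEF. In MESC 66 of the 128 reads of Hist1h2bk lay at 1 position and its reads covered 12 positions, against 31 positions for Hist1h2ah. Of 20 histone promoters compared between the cell types, 3 were past 4-fold in MESC, beside 6.05% of all promoters, and none in MEF. They were Hist1h2bp with 30 reads in MESC and 3 in MEF (ratio 7.67, 2.38 to 39.3), Hist1h2bk (4.09, 2.63 to 6.61) and Hist1h2ag (4.18, 3.27 to 5.40). Copies can lose or gain reads with the handling of multiple matches, which is not given in the sources used here, so these values are uncertain.

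The following pairs, often cited as bidirectional examples, held promoter reads on both sides in both libraries, with several counts below 20. Col4a4/Col4a3, another such example, had no promoter reads. Brca1, a repair gene, had 25 promoter and 537 body reads in MESC and 6 and 220 in MEF, and Nbr1, an autophagy receptor gene, had 12 and 389 in MESC and 7 and 191 in MEF. Atm, the damage-response kinase, had 16 promoter reads in MESC and 12 in MEF, and Npat, which coordinates histone transcription, had 50 and 20, a minus to plus ratio of 0.320 (0.170 to 0.571) in MESC and 0.600 (0.267 to 1.29) in MEF. Mcm4, a replicative helicase subunit, had 26 and 9, and Prkdc, the catalytic subunit of DNA-dependent protein kinase, 45 and 26. Recql, a DNA helicase, had 47 and 38 beside 9 and 2 for Golt1b, of vesicle transport. Mrps12, a mitochondrial ribosomal protein gene, had 52 and 10, and Sars2, the mitochondrial serine tRNA synthetase, 6 and 3. Of 35 such pairs listed, 9 met the rule in this annotation.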

How the data were processed

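Per the labels' protocols and the series design text, run-on RNA of MESC and MEF was sequenced and aligned by the authors with Eland to mm9, and reads in rRNA-like regions were removed. The deposited reads still held 993739 MESC reads (11.6%) and 1080553 MEF reads (16.4%) at rDNA-like loci. These stayed in the totals used for RPKM and ratios. Leaving them out shifts every log2 ratio of MESC over MEF by -0.0814. The Eland version is not given in the sources used here, and mm9 is also named in the submitters' processing notes. The deposited files hold 1 line per read, so the authors' unit is a raw read count without normalization, with the libraries of a cell type pooled per the file headers. Listed positions were taken as 5′ ends: 93.0% of MESC and 95.5% of MEF reads checked (every 400th) matched the NCBIM37 genome with at most 2 mismatches.

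Reads were counted by 5′ end and strand in promoter windows (opening 50 bp ahead of the TSS and closing 300 bp past it) and bodies (1000 bp after the TSS to the end, models of at least 2000 bp), where no other same-strand gene overlapped. Density was RPKM over the 8571395 MESC and 6571116 MEF reads outside the mitochondrial genome. Ratios used at least 50 body or 20 promoter reads, a fold of 4 and, for calls and log2 ratios, 3 reads in place of lower counts; printed ratios use the counts as they are, with exact conditional Clopper-Pearson intervals that cover counting error only. No comparison had a test: edgeR's quasi-likelihood test was planned only for reads assignable to samples, and the reads carry no sample name. Scripts were tested on simulated data with known changes. The members and lists were chosen with earlier results of these data known. Pairs were named by fixed rules (largest ratios, largest differences, highest lower member, textbook examples, list members); Kirrel2/Nphs1, Nrg4/AI118078, N4bp3/D930048N14Rik, Kctd19/Lrrc36, Anxa5/1810062G17Rik, Tmem176b/Tmem176a, Rad9b/Vps29 and Chek2 were chosen after their values were seen. Python 3.11.15, pandas 2.3.3, scipy 1.17.1 and pysam 0.24.0 were used, with edgeR 4.0.16 for TMM factors. Alternatives covered read duplicates, depth, read length, scaling, read minimums, windows, fold and TSS choice. A pair that met the rules for naming is not reported here.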

Additional observations from a re-analysis of the deposited data

How the results depend on the processing

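Of 199 values recomputed under an alternative, 122 stayed within the limits set for a like value (counts within 1.5 times, other values within the interval of the value reported), 73 moved past them and 4 turned sign. Some of the 122 could not move. Results of MEF alone do not depend on a change to the MESC reads, and scaling leaves the correlation of body ratios as it is. Of the 32 members past 4-fold in the body, 27 remained so with 1 read per position, 28 with MESC thinned to the MEF total, 20 with 35-base MESC reads, 24 under either the median ratio or TMM, 26 without rDNA-like loci and 27 with bodies from 3000 bp, and none reversed. Under the scalings a reversal was not possible, because their shift is too small to turn a 4-fold difference. No paired analysis was possible because the reads of each cell type are pooled and carry no sample name, and for the same reason no replicate could be left out. The causes of the movements below were not tested.

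The correlation of the members' promoter reads turned negative among pairs with at least 20 promoter reads in 1 member (-0.238 in MESC, -0.411 in MEF) and at least 50 (-0.473 and -0.593), filters that pick pairs by their higher member. In the wider promoter window it was 0.457 in MESC and 0.393 in MEF.

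Percents in brackets in this paragraph are shares of all coding genes compared under the same setting, not of members. For TSSs within 300 bp they are those of the main setting. Members higher in MESC in the body numbered 10 of 827 with 35-base reads (5.24%) and 7 of 484 at 200 reads (5.27%). Of 949 they numbered 13 under the median ratio (6.14%), 13 under TMM (6.196%) and 173 at 2-fold (20.01%). With no minimum they numbered 42 of 1220 (7.74%), and at TSSs within 300 bp 10 of 715 (7.49%). At 20 reads they numbered 39 of 1095 (9.61%), and at 50 reads in both libraries 3 of 773 (1.32%). These last minimums were chosen after seeing the data. Members higher in MEF in the body numbered 7 of 484 at 200 reads (6.01%), 6 of 773 at 50 reads in both libraries (3.21%) and 35 of 949 at 2-fold (12.5%). Promoters higher in MESC numbered 10 of 610 with 1 read per position (3.46%), 14 of 529 with 35-base reads (3.60%) and 5 of 309 at 50 reads (4.50%). They numbered 163 of 748 at 2-fold (21.0%) and 15 of 587 within 300 bp (6.05%). Promoters higher in MEF numbered 8 with 35-base reads (4.84%), under the median ratio (3.96%), under TMM (3.77%), with no minimum (1.84%) and in the wider window (3.02%). They numbered 0 of 309 at 50 reads (2.11%), 27 of 748 at 2-fold (9.35%) and 2 within 300 bp.

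Pairs with both members past the fold the same way numbered 1 with 35-base reads and under the 3 other scalings, 5 with no minimum, 14 at 2-fold and 4 at 20 reads, and 2 pairs ran opposite ways at 2-fold. Pairs with 1 such member numbered 8 with 35-base reads, the median ratio and TMM, 3 at 200 reads, 39 with no minimum, 95 at 2-fold, 6 within 300 bp, 28 at 20 reads and 1 at 50 reads in both libraries. The correlation of body ratios was 0.314 with no minimum and 0.314 at 20 reads, and, within the wide interval of the 0.195 reported, 0.111 with bodies from 3000 bp, 0.144 at 200 reads and 0.145 with the most-read TSS.

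The share of pairs 4-fold apart in MESC was 31.9% with 1 read per position, 50.5% with 35-base reads, 54.3% at 50 reads, 35.2% with no minimum, 33.5% in the wider window, 69.8% at 2-fold and 37.0% with the most-read TSS, a choice added after seeing the data. In MEF it was 42.2% with 1 read per position, 66.9% at 50 reads, 34.9% with no minimum, 40.3% in the wider window, 75.3% at 2-fold and 42.8% with the most-read TSS. Both members were active in MESC in 74.0% of pairs with 35-base reads and 83.6% in the wider window.

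The median pausing index in MESC was 8.60 with 1 read per position, 12.3 when thinned, 18.2 with 35-base reads, 12.0 with bodies from 3000 bp and 7.20 in the wider window, and in MEF 12.6 with 1 read per position and 9.50 in the wider window. Indices of 2 or more made up 98.6% in MESC with 35-base reads and 92.4% in the wider window, and in MEF 100% with bodies from 3000 bp and 95.2% in the wider window. The correlation of pausing indices in MESC was 0.362 over 26 pairs with 35-base reads, 0.234 when thinned, 0.064 over 131 pairs with bodies from 3000 bp and 0.053 over 210 in the wider window. In MEF it was 0.399 over 26 pairs with 1 read per position and 0.060 over 46 with bodies from 3000 bp. Pooling leaves counting error as the only error measured, and 748 of 1492 members had the promoter reads to be compared.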
